A study of Homo sapiens with 12 samples.

Results

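Antisense long noncoding RNAs are transcripts that run opposite to a named protein-coding gene. The 197 followed here were taken by symbol and level. Of 56632 genes in the tables, 1711 carried a symbol that ends in -AS1, -AS2 or -AS3. Of these, 1512 had a mean expected count below 50 over the 12 libraries, 787 of them at 0 in every library, and EPB41L4A-AS1 and OIP5-AS1 were left out by name. The members were thus chosen by their mean count over all libraries, so the level is given as a description. Just above the limit stood MYG1-AS1 at a mean of 50.7 and MAST3-AS1 at 51.0, and just below it SIPA1L1-AS1 at 49.0 and PPP3CB-AS1 at 49.4.

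The RNA came from MCF10A, a human breast epithelial cell line that does not form tumors, as wild type (WT) or with the gene CBFB deleted by CRISPR (CBFB_KO). CBFB does not bind DNA itself but pairs with the RUNX transcription factors and strengthens their binding, and the study asked how its loss changes the loading of mRNAs on ribosomes. The CBFB_KO line was grown from a single-cell colony, so the deletion and the clone cannot be told apart. In all groups the cells were held for 30 min in cycloheximide at 100 µg/ml, which stops elongating ribosomes, and their lysates were spun through a sucrose gradient of 10 to 50%. Free RNA, monosome (mono) and pooled polyribosome (poly) fractions were sequenced, with 2 libraries for each genotype and fraction. The labels name a TruSeq mRNA kit, which selects poly(A) RNA, while the study's general RNA-seq methods speak of removing ribosomal RNA, so how antisense RNAs without a poly(A) tail were captured is not settled. Same-numbered libraries of a genotype are called a gradient here, although the labels do not state that they came from 1 spin. The labels do not say whether replicates came from separate cultures, so p-values measure the spread between these libraries only.

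An antisense RNA can overlap the mRNA of its partner, start beside it from a shared promoter, or lie in an intron of it. Most have no conserved open reading frame and are not known to be translated. An RNA sediments in the polysome fraction when several ribosomes are bound to it, with one ribosome it sediments with monosomes, and without ribosomes it stays in the free part at the top of the gradient. RNA bound in other large complexes can sediment with ribosomes too.

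All of the members had an entry in GENCODE 29 (GRCh38 coordinates), where 150 are typed as antisense, 21 as lincRNA, 20 as processed transcripts and 2 as protein coding (KRT10-AS1 and KCNJ5-AS1). A partner could be matched by name for 195, and 194 of these partners lie on the opposite strand. In 67 pairs the genes stand head to head, with starts within 2000 bases and at most 1000 bases of overlap. Exons of 161 members share bases with exons of an opposite-strand gene, 156 of them with one that had a mean count of at least 1. The shared part is counted against such genes only, and in 56 members it was over 30% of the exon bases. The strand setting of the counting is not given in the sources used here. Where bases are shared, it is therefore not known whether reads of the antisense RNA and of its partner were kept apart. Shown here are 30 bases from the middle of the longest shared stretch of 3 pairs that share exon bases and are described below, each read 5′ to 3′ from the GENCODE transcripts. The capitals mark the same 10 base pairs on both strands.

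RPS6KB2-AS1: tggcccagggTCCTGCTGCTctcacagccg
RPS6KB2: cggctgtgagAGCAGCAGGAccctgggcca
RCC2-AS1: tcacaacctcCTCTTTGATTccccttcacg
RCC2: cgtgaaggggAATCAAAGAGgaggttgtga
FOXC2-AS1: ttgtggcggaTGCTGTTCTGccagccctgc
FOXC2: gcagggctggCAGAACAGCAtccgccacaa

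The RPS6KB2 stretch lies at chr11:67435213-67435242, with the antisense RNA on the minus strand. The RCC2 stretch lies at chr1:17406867-17406896, with the antisense RNA on the plus strand. The FOXC2 stretch lies at chr16:86567674-86567703 inside the coding exon of FOXC2, with FOXC2-AS1 on the minus strand. All exon bases of RPS6KB2-AS1 and of RCC2-AS1 lie in exons of an opposite-strand gene. In TUBA1B-AS1 80.2% do, and in FOXC2-AS1 45.5%.

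The tables held 41050325 to 63886726 expected counts per library. Mitochondrially encoded genes took 1.26 to 20.8% of the counts in 10 libraries, but 71.6% and 87.2% in the CBFB_KO free libraries, which left 13568143 and 5247878 other counts there. Of the members, 127 had a mean count below 50 in CBFB_KO free, against 120 members at 50 or more in each of the other 5 conditions. The CBFB_KO poly libraries differed from each other far less than any other pair. Their mean chi-square per gene was 2.26 against 128 to 957 in the other conditions, and the members' median was 0.919 against 2.76 to 23.8. Both values are above what sampling noise alone gives, but that does not show that the libraries are separate samples. The pair was kept as 2 samples. Most counts that rest on this pair are given also with the pair counted as 1 sample. The tests take the spread from all libraries together, so comparisons without this pair depend on it too. In WT poly against free, fewer members passed the test with the pair counted as 1 sample. Keratins KRT5 and KRT17, which mark basal epithelial cells, were at medians of 665 and 901 TPM (a unit that corrects for transcript length) outside CBFB_KO free, and KRT18, a luminal keratin, at 263. The leukocyte gene PTPRC and the fibroblast gene COL3A1 were at 0 in every library. Single genes were followed across libraries in CPM (counts scaled to library size with TMM factors). CBFB RNA was at 5.37 and 12.6 CPM in WT free against 11.3 and 14.1 in CBFB_KO free. It was at 8.03 and 6.20 against 4.79 and 3.89 in mono, and at 5.72 and 6.84 against 3.59 and 4.01 in poly. None of the 3 differences passed the test (edgeR quasi-likelihood, Benjamini-Hochberg adjusted p from 0.373 to 1.0). CRISPR edits need not remove the transcript, so RNA level does not check the label.

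The members made up a small part of each library and a smaller part of polysome RNA. They held 0.206 and 0.210% of the non-mitochondrial counts in WT free, 0.182 and 0.174% in WT mono, and 0.0838 and 0.0737% in WT poly. In CBFB_KO they held 0.236 and 0.219% in free, 0.203 and 0.194% in mono, and 0.102 and 0.1003% in poly. In both genotypes every poly library lay below every mono and free library. The 8 members with the highest levels gave up to 44.5% of these counts. Without those 8, the share was 0.0553 to 0.0637% in poly against 0.107 to 0.129% in mono and 0.127 to 0.161% in free.

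**Figure D1:**
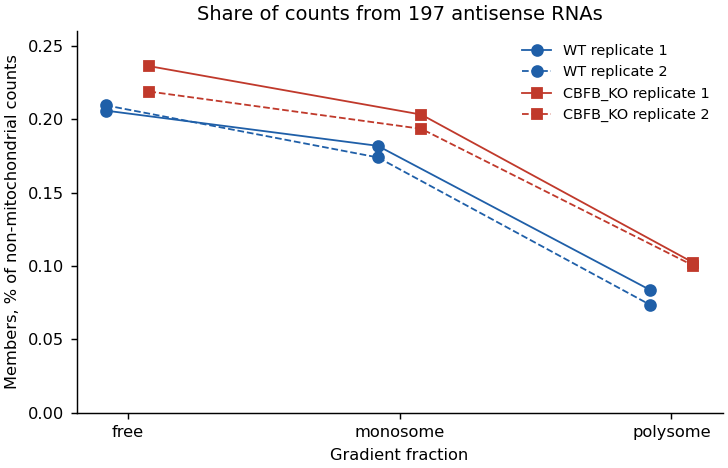
Share of the non-mitochondrial expected counts (%, y axis) that came from the 197 antisense RNAs in each gradient fraction (x axis), with 1 line per gradient. The 4 polysome points sit between 0.0737 and 0.102%, below all monosome and free points.

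Levels were spread over 3 orders of magnitude. Averaged over the 10 libraries other than CBFB_KO free, the members ranged from 0.163 to 177 TPM, with a median of 2.98. The highest were TUBA1B-AS1 at 177 TPM, PRR34-AS1 at 101, PPP1R14B-AS1 at 74.5 and KRT10-AS1 at 67.1. By mean CPM, the 8 highest were TUBA1B-AS1, KRT10-AS1, VPS9D1-AS1, HSD17B1-AS1, NUTM2A-AS1, PRR34-AS1, AGAP2-AS1 and NOP14-AS1.

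KRT10-AS1 lies beside KRT10, a keratin of differentiated suprabasal cells, and shares only 2.37% of its exon bases with it. It was at 120 and 84.4 CPM in WT free, 147 and 188 in WT mono, and 18.0 and 15.6 in WT poly. In CBFB_KO it was at 23.0 and 12.1 in free, 154 and 227 in mono, and 20.6 and 19.6 in poly. The monosome libraries were the highest in both genotypes. The genotypes lay farthest apart in free, where it fell by 2.54 on the log2 scale in CBFB_KO (edgeR adjusted p = 0.0019). KRT10 mRNA was also lower in poly than in mono, by 2.53 on the log2 scale in WT and 2.16 in CBFB_KO (edgeR adjusted p = 0.0060 and 0.014).

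VPS9D1-AS1 was highest in free RNA. It was at 85.3 and 95.4 CPM in WT free, 48.4 and 23.4 in mono and 17.3 and 13.7 in poly. In CBFB_KO it was at 286 and 190 in free, 57.1 and 49.4 in mono, and 18.3 and 16.7 in poly. In all 4 gradients free was above mono, and mono above poly.

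NUTM2A-AS1 had similar TMM-scaled values in both genotypes. It was at 66.8 and 55.0 CPM in WT free, 40.9 and 51.1 in mono and 8.69 and 7.40 in poly, against 63.6 and 65.0, 42.9 and 66.1, and 9.68 and 11.4 in CBFB_KO. In these scaled values its poly libraries were below all others by a wide gap. The CBFB_KO free values rest on TMM factors of 0.494 and 0.241. Without TMM factors CBFB_KO free overlaps with CBFB_KO poly, and it lies below WT free. Its genotype difference in free was a log2 of 0.08 ± 0.37 (SE, edgeR adjusted p = 0.88).

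PRR34-AS1 peaked in monosomes. It was at 14.4 and 19.7 CPM in WT free, 61.4 and 71.9 in mono, and 11.1 and 9.41 in poly. In CBFB_KO it was at 5.69 and 8.60 in free, 87.5 and 114 in mono and 18.0 and 17.3 in poly. In no gradient did free or poly reach the mono level.

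TUBA1B-AS1 had the highest mean level and a wide spread. In WT it was at 158 and 36.8 CPM in free, 216 and 253 in mono and 17.3 and 1.30 in poly. In CBFB_KO it was at 166 and 14.9, 172 and 262, and 82.9 and 67.7. Replicates differed by more than 10 times in WT poly and in CBFB_KO free. It is antisense to the α-tubulin gene TUBA1B, which had 808 to 940 CPM in WT mono and 2072 to 2121 in WT poly. Whether the reads of their shared exon bases were kept apart is not known.

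HSD17B1-AS1, AGAP2-AS1 and NOP14-AS1 are described here in WT mono and poly only. HSD17B1-AS1, opposite an estradiol-forming enzyme gene, was at 76.7 and 49.2 CPM in WT mono and 34.3 and 25.8 in poly. AGAP2-AS1 was at 42.4 and 26.9 in WT mono and 27.3 and 19.8 in poly, where the groups overlapped. NOP14-AS1, opposite a ribosome-biogenesis gene, was at 34.6 and 20.1 in mono and 9.75 and 8.16 in poly. None of the 3 passed the test of poly against mono in WT (adjusted p = 0.12, 0.60 and 0.059).

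**Figure D2:**
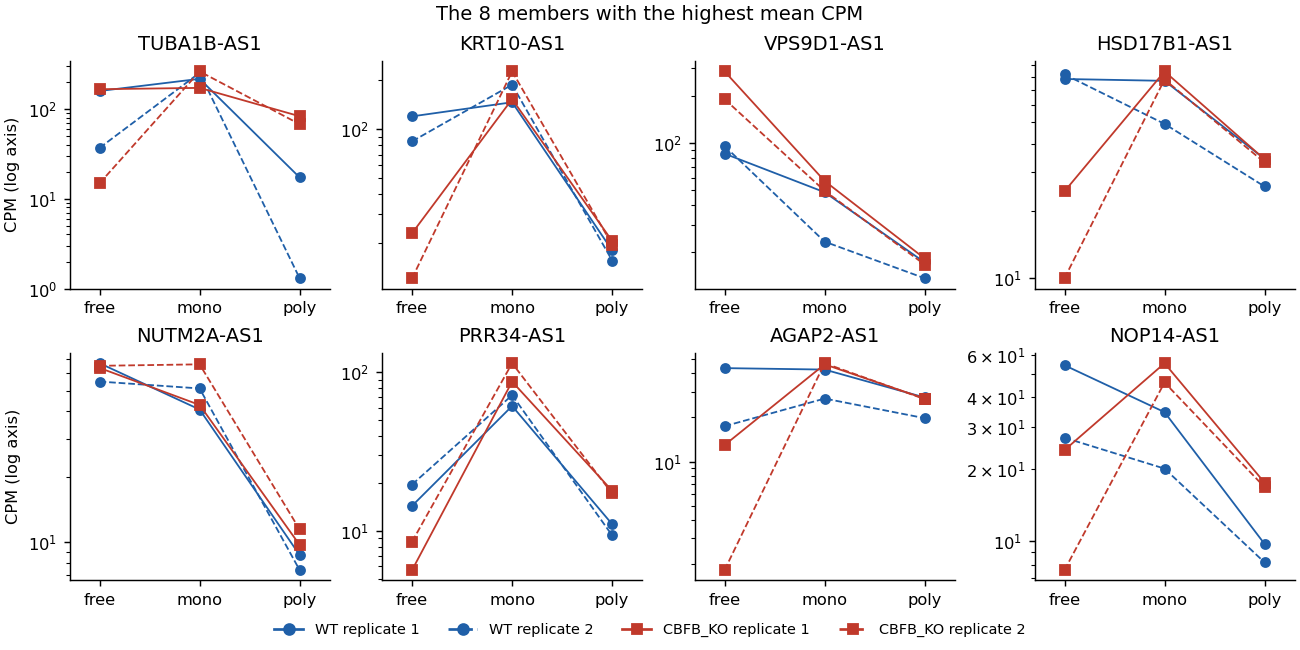
CPM on a log axis of the 8 members with the highest mean CPM in the free, mono and poly fractions (x axis), with 1 line per gradient. Poly lies below mono in every gradient for all 8.

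In WT cells the members were depleted from polysomes relative to monosomes. With all 12 libraries in an edgeR quasi-likelihood fit over 16275 genes and a Benjamini-Hochberg adjusted p below 0.05, 94 of the 197 were lower in poly than in mono and 2 were higher. Over all genes 9.68% were lower and 11% higher. The members' median log2 ratio was -1.81 against -0.04 for all genes tested, and 184 of the 197 had a value below 0. Both poly libraries lay below both mono libraries in 171 members, or 86.8%, against 34% of all genes. Without WT replicate 2 edgeR called 0 members, without WT replicate 1 there were 38, and without CBFB_KO replicate 1 there were 62. Without TMM factors the calls were 4 higher and 25 lower, where the median of all genes moved to 0.81. When a trend with gene length was removed the calls were 5 higher and 48 lower, with a median of -0.995.

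The largest drop among members was that of RPS6KB2-AS1, antisense to the gene of S6 kinase 2, at chr11:67431367-67435399. It had 206 and 184 counts in WT mono and 0 in both WT poly libraries, at least 242-fold lower against the level of 3 counts over the pair (adjusted p = 0.0035). In CBFB_KO it had 511 and 431 counts in mono and again 0 in poly, at least 564-fold lower (adjusted p = 0.0057), a call lost with the CBFB_KO poly pair counted as 1 sample and without either CBFB_KO replicate. RPS6KB2 itself, whose exons hold all exon bases of the antisense RNA, was at 93.0 and 71.7 CPM in WT poly and 171 and 169 in CBFB_KO poly. How the counting divided the shared reads was not tested.

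TMEM44-AS1, RBPMS-AS1 and TUBA1B-AS1 followed. TMEM44-AS1 was at 14.2 and 14.6 CPM in WT mono and 1.01 and 1.26 in poly, and fell by 3.67 on the log2 scale with an SE of 0.50 (edgeR adjusted p = 0.0031). RBPMS-AS1, opposite an RNA-binding protein gene, went from 1.65 and 1.51 to 0.134 and 0.0883, and fell by 3.80 ± 0.84 (SE, adjusted p = 0.010). TUBA1B-AS1 fell by 4.66 ± 1.29 (SE, adjusted p = 0.026). These 3 and RPS6KB2-AS1 lost their call without WT replicate 2. TUBA1B-AS1 lost it also without TMM factors and with the length trend removed.

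The 2 members that were higher in poly were SREBF2-AS1 and RCC2-AS1. SREBF2-AS1, opposite the gene of a sterol-regulatory transcription factor, was at 0.120 and 0.237 CPM in WT mono (7 and 11 counts) and 1.23 and 1.18 in poly, a log2 rise of 2.75 ± 0.62 (SE, edgeR adjusted p = 0.011). RCC2-AS1 was at 1.24 and 0.517 in mono and 5.18 and 3.55 in poly, a log2 rise of 2.31 ± 0.69 (SE, adjusted p = 0.037). The mRNA of RCC2, a regulator of chromosome condensation, rose by a log2 of 2.07 in the same comparison (adjusted p = 0.0057). Both calls were lost without either WT replicate, and that of RCC2-AS1 also without CBFB_KO replicate 1 and with the CBFB_KO poly pair counted as 1 sample.

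Poly was below mono in CBFB_KO cells too. The median log2 ratio was -1.80 against -0.07 for all genes, and 183 members were below 0. 90 members were lower and 0 higher, against 8.66 and 8.2% of all genes. Unadjusted p-values below 0.05 gave 136 members lower and 2 higher, against 5283 of 16275 genes in either direction. In DESeq2, given for the members only, 127 were lower and 1 higher. Both poly libraries lay below both mono libraries in 178 members, or 90.4%, against 39.2% of all genes. With the near-identical CBFB_KO poly pair counted as 1 sample, and without either CBFB_KO replicate, 0 members were called. With only the CBFB_KO libraries of these fractions in the fit there were 4 higher and 148 lower. Without TMM factors there were 1 higher and 19 lower, and with the length trend removed 3 higher and 40 lower.

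The members with the largest falls in CBFB_KO after RPS6KB2-AS1 were ZFHX2-AS1, PPP1R14B-AS1 and B4GALT1-AS1. ZFHX2-AS1 was at 6.24 and 8.77 CPM in mono and 0.233 and 0.602 in poly, and fell by 4.16 ± 0.57 on the log2 scale (SE, edgeR adjusted p = 0.0057). PPP1R14B-AS1, opposite a protein phosphatase inhibitor gene, was at 51.9 and 78.7 in mono and 5.07 and 5.24 in poly, and fell by 3.66 ± 0.40 (SE, adjusted p = 0.0057). In WT it was at 36.5 and 48.2 in mono and 3.65 and 3.59 in poly, and fell by 3.55 (adjusted p = 0.0031). B4GALT1-AS1, opposite a galactosyltransferase gene, was at 3.31 and 3.47 in CBFB_KO mono and 0.324 and 0.248 in poly, and fell by 3.56 ± 0.68 (SE, adjusted p = 0.0085). The mRNA of B4GALT1 had the opposite sign, with log2 rises of 1.92 in WT and 1.75 in CBFB_KO (adjusted p = 0.018 and 0.031).

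The WT and CBFB_KO comparisons share no library. 79 members were lower in both, or 84% of the 94 in WT and 87.8% of the 90 in CBFB_KO. Across the 197 members the 2 log2 ratios had a Spearman correlation of 0.84, a description over genes that share libraries within each genotype. The test of a genotype difference in the poly to mono ratio, added after the data were seen, called 0 members and 0 genes of 16275 in edgeR (0%). At an unadjusted p below 0.05 it gave 1 member and 164 of all genes, and no other tool was run for it. Poly lay below mono in each of the 4 gradients in 172 members, or 87.3% against 33% of all genes.

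In 7 members poly lay above mono in each of the 4 gradients, or 3.55% against 33% of all genes. They were SLC9A3R1-AS1, VASH1-AS1, RCC2-AS1, ARAP1-AS1, SREBF2-AS1, CERS6-AS1 and MAST3-AS1, named after their values were seen. In all of them except SREBF2-AS1 at 9.37%, between 49.2 and 100% of the exon bases are shared with an opposite-strand gene. Over all members the median shared part was 11.9%. The 41 members that share no exon bases with an opposite-strand gene at a mean count of 1 or more had median poly to mono log2 ratios of -1.94 in WT and -1.80 in CBFB_KO, with 22 and 21 called lower and 0 called higher. The 56 members with over 30% shared had medians of -1.37 and -1.25, with 18 and 15 called lower.

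**Figure D3:**
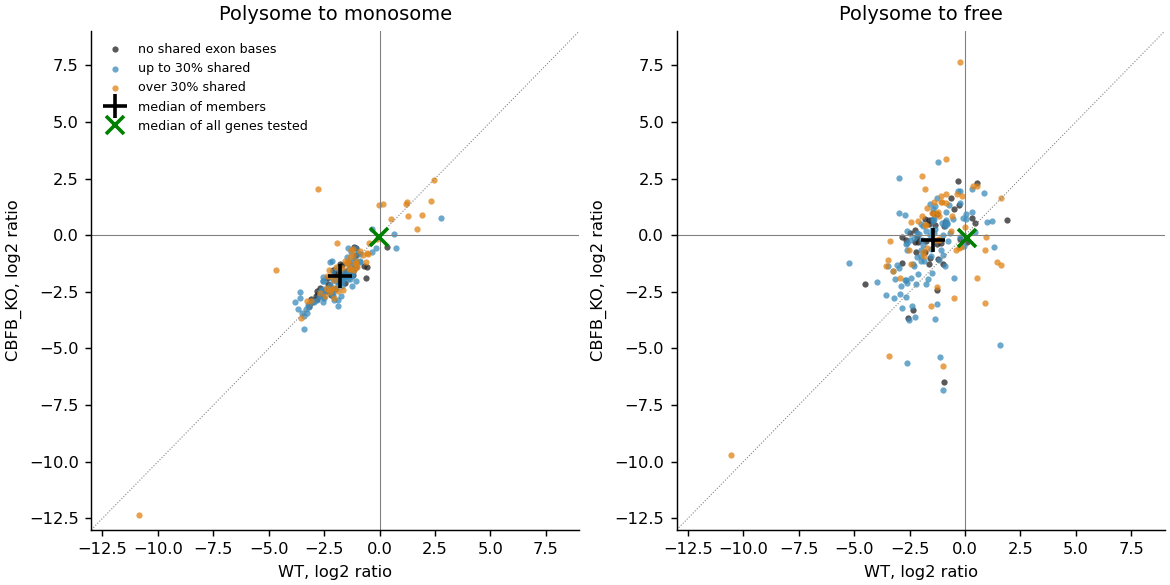
Fitted log2 ratio of poly to mono (left) and poly to free (right) in WT (x axis) and CBFB_KO (y axis), with 1 point per member coloured by the percent of its exon bases shared with an opposite-strand gene. The median of the members lies near -1.8 on both axes at left, and at right at -1.44 in WT and -0.20 in CBFB_KO. RPS6KB2-AS1 with 0 polysome counts is the point at the lower left of both panels, and at left the point of FOXC2-AS1 at a positive CBFB_KO value rests on 1 count.

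The 1464 other lncRNA genes tested had median poly to mono log2 ratios of -1.58 in WT and -1.64 in CBFB_KO. The 13153 protein-coding genes had 0.18 and 0.14. The partners of the members were on the side of the coding genes. Over 183 pairs with a tested partner the median was -1.79 for the members and 0.293 for the partners in WT, and the member lay below its own partner in 163. In CBFB_KO the medians were -1.80 and 0.177, with the member lower in 162. The Spearman correlation between member and partner was 0.113 in WT and 0.12 in CBFB_KO over the 183 pairs.

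Against free RNA the genotypes differed. In WT 81 members were lower in poly than in free and 0 were higher, against 7.99 and 14% of all genes. Unadjusted p-values below 0.05 gave 110 members lower and 2 higher, against 6092 of 16275 genes in either direction. In DESeq2, given for the members only, 105 were lower and 2 higher. The median log2 ratio was -1.44 against 0.08 for all genes and -1.40 for the other lncRNA genes. Both poly libraries lay below both free libraries in 141 members, or 71.6% against 26.7% of all genes. The count was 28 without WT replicate 1, 51 without CBFB_KO replicate 1 and 53 without CBFB_KO replicate 2. Without TMM factors 35 were lower and 2 higher, and with only the WT libraries of these fractions 42 were lower and 0 higher.

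The largest falls after RPS6KB2-AS1, which was at least 192-fold lower in poly, were those of INTS6-AS1, ZNF674-AS1 and KMT2E-AS1. INTS6-AS1, opposite the gene of an Integrator complex subunit, was at 2.37 and 3.48 CPM in WT free and 0.0766 and 0.0772 in poly, and fell by 5.21 ± 0.93 on the log2 scale (SE, edgeR adjusted p = 0.0040). ZNF674-AS1, which shares no exon bases with another strand, was at 18.4 and 48.1 in free, 4.65 and 4.95 in mono and 1.61 and 1.33 in poly. It fell by 4.49 ± 0.68 from free to poly (SE, adjusted p = 0.0022). KMT2E-AS1 went from 7.22 and 6.10 in free to 0.517 and 0.331 in poly, and fell by 3.96 ± 0.62 (SE, adjusted p = 0.0024). All 4 kept the call in each alternative run.

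In CBFB_KO 38 members were lower in poly than in free and 16 were higher, against 16.7 and 14.6% of all genes. The median was -0.20 against -0.12 for all genes and -0.50 for the other lncRNA genes. Poly lay below free without overlap in 80 members, or 40.6% against 39.9% of all genes. The split rested on the scaling. Without TMM factors it was 10 lower and 99 higher, where the median of all genes moved from -0.12 to 2.05, and with the length trend removed it was 58 lower and 7 higher. With the poly pair counted as 1 sample 15 were lower and 2 higher. Without CBFB_KO replicate 1 the calls were 13 lower and 10 higher, and without CBFB_KO replicate 2 they were 10 lower and 0 higher.

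The genotypes differed most in the free fraction. In CBFB_KO free 73 members were lower than in WT free and 13 were higher, against 18.1 and 24.2% of all genes. The median was -1.21 on the log2 scale against 0.04 for all genes, -0.67 for the other lncRNA genes and 0.22 for protein-coding genes. Both CBFB_KO free libraries lay below both WT free libraries in 113 members, or 57.4% against 31.5% of all genes. They lay above in 25, or 12.7% against 37.4%. The members' summed share of non-mitochondrial counts pointed the other way, at 0.236 and 0.219% in CBFB_KO free against 0.206 and 0.210% in WT free. Without the 8 highest members it was 0.131 and 0.161% against 0.127 and 0.144%, where the groups overlapped. That share weighs members by their counts and uses no TMM factors. The mitochondrial share of 71.6 and 87.2% moved with this comparison, and its part in the result was not tested. With mitochondrially encoded genes left out, an alternative added after the data were seen, 73 were lower and 12 higher.

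This count rested on single libraries. It was 6 lower and 4 higher without CBFB_KO replicate 2, 49 and 8 without CBFB_KO replicate 1, and 39 and 11 without WT replicate 1. In a fit to the 4 free libraries alone it was 3 and 6, without TMM factors it was 146 and 4, and with the length trend removed 46 and 20 with a median of -0.52. Among the 120 members at a mean of 50 or more in all conditions other than CBFB_KO free, 52 were lower and 7 higher.

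The members that rose most in CBFB_KO free were SLC25A25-AS1, FBXL19-AS1, MMP25-AS1 and BCAN-AS2. SLC25A25-AS1, opposite the gene of a mitochondrial ATP-Mg/phosphate carrier, was at 1.13 and 2.08 CPM in WT free and 30.6 and 88.2 in CBFB_KO free, a log2 rise of 5.20 ± 0.61 (SE, edgeR adjusted p = 0.00018). In mono it was at 2.25 and 2.18 in WT and 0.892 and 0.634 in CBFB_KO, and in poly at 1.02 and 0.618 against 0.492 and 0.531. It was higher in the knockout in free alone, and its genotype differences in mono and poly did not pass the test (adjusted p = 0.84 and 1.0). BCAN-AS2, opposite the gene of brevican, was at 5.15 and 3.72 in WT free and 37.7 and 114 in CBFB_KO free, a log2 rise of 4.09 ± 0.57 (SE, adjusted p = 0.00050). These 2 kept the call in each alternative.

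FBXL19-AS1 had 0 and 68 counts in WT free, or 0 and 0.874 CPM, against 7.56 and 23.4 CPM in CBFB_KO free, a log2 rise of 5.12 ± 1.26 (SE, edgeR adjusted p = 0.010). MMP25-AS1, opposite a membrane-type metalloproteinase gene, was at 0.114 and 2.75 in WT free and 23.0 and 53.5 in CBFB_KO free, a log2 rise of 4.73 ± 1.08 (SE, adjusted p = 0.0071). Their WT replicates stood far apart, but no WT value reached a CBFB_KO value. Both lost the call without CBFB_KO replicate 2, and FBXL19-AS1 also without TMM factors and in a fit to the free libraries alone. MMP25 mRNA rose by a log2 of 2.14 (adjusted p = 0.0091), while SLC25A25, FBXL19 and BCAN had adjusted p of 0.50, 0.67 and 0.29.

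Among the members that were lower in CBFB_KO free, many had almost no counts there. TRIM7-AS2 had 61 and 10 counts in WT free and 0 in both CBFB_KO free libraries, at least 5.35-fold lower (edgeR adjusted p = 0.018). B4GALT1-AS1 had 55 and 29 counts against 1 and 0, a pooled ratio of 19.0 with an exact 95% interval from 3.32 to 759 (edgeR adjusted p = 0.0078). THAP7-AS1 had 88 and 145 counts against 2 and 1, a pooled ratio of 17.6 with an interval from 5.94 to 85.8 (adjusted p = 0.0027). These intervals cover counting error only. All 3 were present in CBFB_KO mono, with 66 and 128, 178 and 126, and 102 and 53 counts. All 3 lost the call in free without either CBFB_KO replicate, TRIM7-AS2 also without WT replicate 1, and B4GALT1-AS1 and THAP7-AS1 also in a fit to the free libraries alone. B4GALT1 mRNA went the other way, from 89.5 and 193 CPM in WT free to 1244 and 1662 in CBFB_KO free (log2 rise of 3.36, adjusted p = 0.00083).

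In free RNA the median of the partners lay on the other side of 0 from that of the members under TMM scaling. Where 0 lies rests on that scaling: without TMM factors the median of all genes moved from 0.04 to -1.57. Over 183 pairs the median log2 difference between CBFB_KO and WT was -1.25 for the members and 0.82 for the partners, and the member lay below its partner in 135. The Spearman correlation was 0.141 over the pairs. Among pairs with a member called lower the partner was called higher in 19, lower in 18, and not called in 35. Over all 182 tested partners 34.1% were higher and 19.8% lower, against 24.2 and 18.1% of all genes and 27.1 and 18.7% of protein-coding genes. KMT2E-AS1, opposite a gene of the lysine methyltransferase family, was at 7.22 and 6.10 CPM in WT free and 2.21 and 1.11 in CBFB_KO free (log2 of -1.97, edgeR adjusted p = 0.021). KMT2E mRNA was at 1.67 and 3.61 CPM in WT free and 77.3 and 170 in CBFB_KO free (log2 of 5.54, adjusted p = 9.9e-05). RBPMS went from 16.3 and 10.8 to 163 and 160 (log2 of 3.57, adjusted p = 0.00020), while RBPMS-AS1 fell by 3.40 (adjusted p = 0.020). THAP7 and PPP1R14B, in contrast, were lower along with their antisense RNAs, at log2 values of -2.74 and -2.19 (adjusted p = 0.020 and 0.012).

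In monosomes and polysomes the genotypes were hard to tell apart. In mono 1 member was lower in CBFB_KO and 0 were higher, against 0.117 and 0.0307% of all genes, with a median of 0.19 against 0.03. At an unadjusted p below 0.05 there were 6 lower and 5 higher of 197, against 712 of 16275 genes in either direction. In DESeq2, given for the members only, 2 were lower and 1 higher. In poly 0 members were called in edgeR, against 0.166% of all genes lower and 0.0246% higher, with a median of 0.16 against -0.03. At an unadjusted p below 0.05 there were 4 lower and 4 higher of 197, against 451 of 16275 genes in either direction. In DESeq2, given for the members only, 2 were called, both lower.

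The member called in mono was FOXC2-AS1, at chr16:86565145-86567761, which stands head to head with FOXC2, the gene of a forkhead transcription factor active in mesenchymal and lymphatic development. It had 167 and 121 counts in WT free, 212 and 189 in WT mono and 51 and 57 in WT poly. In CBFB_KO it had 0 in both free libraries, 0 in both mono libraries, and 1 and 0 in poly. All WT libraries were above all CBFB_KO libraries in each fraction. It was at least 21.7-fold lower in free (edgeR adjusted p = 0.0020) and at least 115-fold lower in mono (adjusted p = 0.018). In poly the pooled ratio of WT to CBFB_KO was 89.6 with an exact 95% interval from 15.7 to 3570, counting error only, and the adjusted p was 0.084. The call in free held in each alternative. In mono it was lost without any 1 of the 4 gradients and with only the mono libraries in the fit.

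FOXC2 mRNA was lower in CBFB_KO too, and the difference passed the test in mono and poly. FOXC2 was at 9.94 and 6.10 CPM in WT mono against 0.241 and 0.248 in CBFB_KO mono, and fell by 5.02 ± 0.47 on the log2 scale (SE, edgeR adjusted p = 0.0015). In poly it was at 6.67 and 6.22 against 0.298 and 0.401, and fell by 4.19 ± 0.44 (SE, adjusted p = 0.0023). In free it was at 12.9 and 17.6 against 8.28 and 8.39, lower without overlap, but the difference did not pass the test (adjusted p = 0.085). These free values rest on TMM factors of 1.12 and 1.24 in WT against 0.494 and 0.241 in CBFB_KO. Without those factors they lie farther apart. FOXC2-AS1 was the only member with such values in the knockout, where all 6 libraries together held 1 count.

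ELFN1-AS1 shares no exon bases with another strand but lies inside the span of another gene. Its genotype differences had opposite signs in free and in the ribosome fractions. It was at 4.41 and 1.11 CPM in WT free, 4.29 and 4.31 in mono, and 1.70 and 1.19 in poly. In CBFB_KO it was at 17.3 and 12.4 in free, 0.223 and 0.827 in mono and 0.181 and 0.153 in poly. In these scaled values the CBFB_KO libraries were above WT in free and below it in mono and poly, without overlap. The values in free rest on TMM factors of 0.494 and 0.241 in CBFB_KO against 1.12 and 1.24 in WT. Without those factors the WT and CBFB_KO values in free overlap. The rise in free was a log2 of 2.44 (edgeR adjusted p = 0.018), while the log2 values of -3.06 in mono and -3.10 in poly did not pass the test (adjusted p = 0.31 and 0.33).

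**Figure D4:**
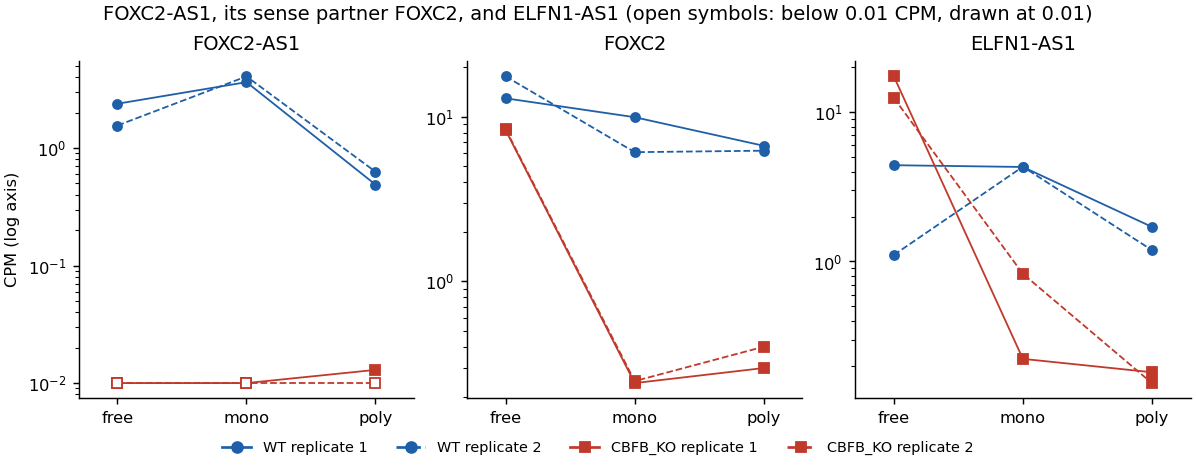
CPM on a log axis of FOXC2-AS1, of FOXC2 and of ELFN1-AS1 in the free, mono and poly fractions (x axis), with 1 line per gradient and open symbols for values below 0.01 CPM. FOXC2-AS1 is at or near the lower edge in all CBFB_KO libraries. FOXC2 is lower in CBFB_KO in each fraction, with the wider gaps in mono and poly. ELFN1-AS1 crosses from higher in free to lower in mono and poly.

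The change of the poly to free ratio between genotypes put these values in 1 test. The ratio was higher in CBFB_KO for 27 members and lower for 7, against 4.1 and 14.3% of all genes. The median difference was 1.33 on the log2 scale against -0.10 for all genes. The other lncRNA genes had a median of 0.89, with 4.99% higher and 4.65% lower. For the partners the median was -0.99, with 10 of 182 higher and 45 lower. The test shares the free libraries with the comparison above. With the CBFB_KO poly pair counted as 1 sample 3 were higher and 3 lower, without CBFB_KO replicate 2 there were 0 and 1, without WT replicate 1 there were 13 and 6, and with the length trend removed 17 and 11. Without TMM factors 101 were higher and 3 lower, where the median of all genes moved to 1.54.

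The largest increases of the ratio were those of RBPMS-AS1, THAP7-AS1, B4GALT1-AS1 and ZBTB11-AS1. ZBTB11-AS1 was at 4.42 and 2.20 CPM in WT free and 2.06 and 1.59 in WT poly. In CBFB_KO it was at 0.212 and 0.303 in free (5 and 3 counts) and 2.49 and 2.58 in poly. The log2 ratio of poly to free was -0.86 in WT and 3.35 in CBFB_KO, a difference of 4.21 ± 0.79 (SE, edgeR adjusted p = 0.0050). RBPMS-AS1 had 94 and 34 counts in WT free against 3 and 0 in CBFB_KO free, and 14 and 8 in WT poly against 48 and 28, a difference of 5.47 ± 1.27 (SE, adjusted p = 0.015). The largest decreases were those of FBXL19-AS1, SLC25A25-AS1, ELFN1-AS1 and BCAN-AS2, at -6.42, -5.88, -5.53 and -4.78. Of these 8, only SLC25A25-AS1 kept the call in each alternative, and each of the others lost it without CBFB_KO replicate 2.

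**Figure D5:**
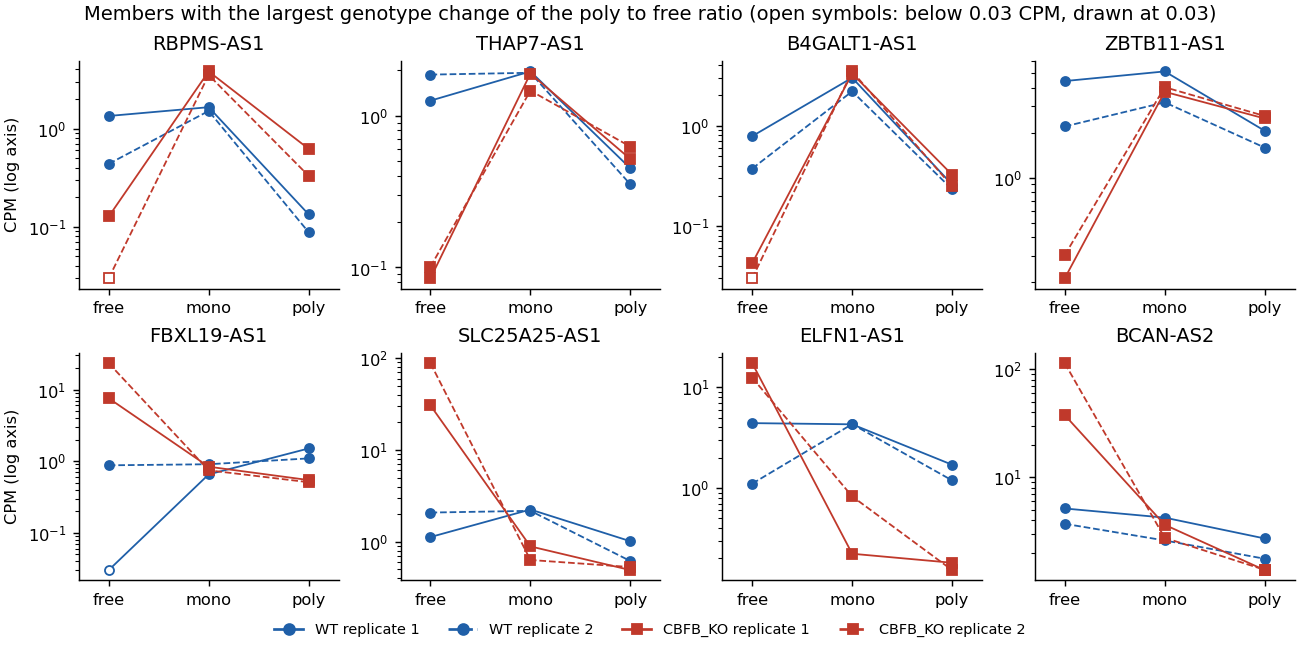
CPM on a log axis of the 4 members with the largest increase (top row) and the 4 with the largest decrease (bottom row) of the ratio of poly to free in CBFB_KO, with 1 line per gradient over the free, mono and poly fractions (x axis). In each panel the free libraries separate the genotypes in these TMM-scaled values. The members were chosen by a ratio that includes the free libraries, so this separation follows in part from the choice. The open symbols mark values below 0.03 CPM.

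Mono against free, a comparison added after the data were seen, gave different counts in the genotypes. In CBFB_KO it uses the same free libraries as the comparisons above, in which 71.6 and 87.2% of counts were mitochondrial. It was fitted with no alternative run, so how far its counts rest on single libraries or the scaling was not tested. In WT 16 members were higher in mono and 4 lower, against 5.55 and 1.43% of all genes. The median was 0.31 against 0.04 for all genes and 0.01 for the other lncRNA genes. In CBFB_KO 90 members were higher and 15 lower, against 20.3 and 23% of all genes. The median was 1.59 against 0.06 for all genes and 1.02 for the other lncRNA genes.

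As each member's CPM over the 3 fractions of 1 gradient, the median part in poly was 13.5 and 12.3% in the WT gradients and 16.1 and 15.1% in the CBFB_KO gradients. Over all genes it was 32.8 and 31.2%, and 26.3 and 25.4%. The median part in free was 38.9 and 34.4% in WT against 25.3 and 13.3% in CBFB_KO, and that in mono was 43.6 and 48.9% against 55.6 and 64.1%. This CPM is scaled by library size and TMM factors and not by the RNA mass of a fraction. These are therefore parts of relative levels and not of molecules. They rest on factors that ran from 0.241 in CBFB_KO free replicate 2 to 1.80 in WT poly replicate 2.

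Features that the choice of members did not use were weakly related to these values. Over the 197 members the Spearman correlation of the poly to mono ratio was 0.24 with GC content in WT and 0.23 in CBFB_KO, 0.2 and 0.25 with the shared exon part, and 0.11 and 0.053 with exon length. The members that stand head to head with the partner had median poly to mono ratios of -1.97 in WT and -1.86 in CBFB_KO, and the other members with a partner had -1.72 and -1.77. A promoter window of 250 bases before to 50 after the start was found in RefSeq (GRCh38.p14) for 148 members. The RUNX core motif TGTGGT, or ACCACA on the other strand, stood in 18 of these windows, or 12.2%, against 15.6% of all 27305 symbols. It stood in 1 of 10 windows of members higher in CBFB_KO free and in 6 of 59 of those lower.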

How the data were processed

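RNA from 12 gradient fractions was sequenced. The labels name an mRNA kit with poly(A) selection, and the general RNA-seq methods name ribosomal RNA removal. Per the labels and the submitters' processing notes, the authors trimmed reads with Trimmomatic, aligned them with STAR to hg19 and estimated gene values with RSEM. The annotation release, tool versions and strand setting are not given in the sources used here. The deposited tables hold expected counts, TPM and FPKM per gene, and FPKM was not used. Expected counts were rounded and tested with edgeR 4.0.16 (quasi-likelihood, TMM factors, low-count filter over the 6 conditions, 1 fit to all 12 libraries, Benjamini-Hochberg adjusted p below 0.05 over 16275 genes). All 197 members passed the filter. TMM CPM per library is given for single genes, and deposited TPM for levels between genes. Near-copies and overlapping genes can share reads, which RSEM divides by estimate.

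Symbols came from a gene ID table, or from GENCODE 29 for 3 members whose ID it lacked. Coordinates are those of GENCODE 29 on GRCh38 and not of the authors' hg19. The members, gene lists and tests were chosen with earlier results of these data known. Named were the 8 members highest in CPM, up to 4 called members per direction and comparison with the largest change, the members at the limit of the rule, their partners and CBFB.

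Alternatives were library size alone, DESeq2 1.42.0, no filter, a replicate block, a length trend removed, the CBFB_KO poly pair as 1 sample, only the libraries compared, and each gradient left out. Added after the data were seen were leaving out mitochondrially encoded genes, the members with counts in most conditions, the members without shared exons, and a replicate block within genotype. Mono against free and the genotype test of the poly to mono ratio were also added then. Counts were also simulated for the genotypes in poly (16275 genes), with the same spread for every gene and independent libraries. On these, edgeR called 98.9% of genes changed by a log2 of 4 and 71.3% of those changed by 2. Of 173 calls, 5 were false. The real libraries did not have such a uniform spread, so these rates need not hold for them. A total of 41050325 to 63886726 expected counts per library sets the precision, and a count of 0 allows up to 3 counts. Intervals are exact at 95% and cover counting error only.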

Additional observations from a re-analysis of the deposited data

Results flagged for a closer look

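Among the members named above, 13 differed between genotypes in the poly to free ratio by the test of the difference itself (edgeR quasi-likelihood interaction, Benjamini-Hochberg adjusted p below 0.05, 2 libraries per condition). Over all genes 4.1% were higher and 14.3% lower. Of the 13, only SLC25A25-AS1 kept the call without CBFB_KO replicate 2, while 5 kept it without CBFB_KO replicate 1 and 4 with the CBFB_KO poly pair counted as 1 sample. The ratio was lower in CBFB_KO for FBXL19-AS1 (log2 difference of -6.42), SLC25A25-AS1 (-5.88), ELFN1-AS1 (-5.53) and BCAN-AS2 (-4.78). It was higher for PRR34-AS1 (2.05), PPP1R14B-AS1 (2.21), HSD17B1-AS1 (2.37), KRT10-AS1 (2.79), INTS6-AS1 (3.99), ZBTB11-AS1 (4.21), B4GALT1-AS1 (4.45), THAP7-AS1 (4.58) and RBPMS-AS1 (5.47). All 13 values use the CBFB_KO free libraries, in which 71.6 and 87.2% of counts were mitochondrial. The part of that share in these values was not tested.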

How the results depend on the processing

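Counts of called members moved with the scaling, the fit and single gradients. With library size alone they were 37 (WT poly against free), 29 (WT poly against mono), 109 (CBFB_KO poly against free), 20 (CBFB_KO poly against mono), 150 (genotypes in free) and 104 (change of the poly to free ratio). With the length trend removed poly against mono gave 53 in WT and 43 in CBFB_KO. With the CBFB_KO poly pair as 1 sample, WT poly against mono gave 63, CBFB_KO poly against free 17, CBFB_KO poly against mono 0, the genotypes in free 55 and the change of ratio 6. With only the libraries compared, the counts were 42 (WT poly against free), 152 (CBFB_KO poly against mono), 9 (genotypes in free), 0 (in mono), 1 (in poly) and 21 (change of ratio). DESeq2 gave 3 in mono, 2 in poly and 62 for the change of ratio, and no filter gave 2 in mono and 3 in poly. Leaving out each gradient in turn gave 28 to 54 (WT poly against free), 0 to 66 (WT poly against mono), 10 to 66 (CBFB_KO poly against free), 0 to 119 (CBFB_KO poly against mono), 10 to 91 (genotypes in free), 0 in mono, 0 in poly and 1 to 38 for the change of ratio. The cause was not tested, beyond the fewer samples in these fits. The labels do not say whether same-numbered libraries share a gradient, and their deviations correlated between -0.04 and 0.22 within a genotype. The replicate block across genotypes gave 77, 98, 55, 97, 91, 1, 0 and 42 in the order of the 8 comparisons. A replicate block within genotype, added after the data were seen, gave 68, 88, 53 and 77 for the 4 comparisons of fractions and 31 for the change of ratio. Of 496 values of named members under the alternatives, 416 kept the call, 80 lost it and 0 changed sign. A mean count of at least 100 left 129 members, at least 50 in each condition left 56, and GENCODE 29 names gave 158, of which 148 were shared. The 5247878 non-mitochondrial counts of CBFB_KO free replicate 2 limit what can be seen in that fraction.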
